A study of Mus musculus with 18 samples.

Results

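The nuclear genes of the mitochondrial respiratory chain and of ATP synthase were followed in satellite cells of the mouse, which are the resident stem cells of muscle. They were chosen by name from the deposited expression table, as genes for the numbered Nduf subunits of complex I, the Sdh subunits of complex II, the Uqcr subunits and Cyc1 of complex III, the Cox4 to Cox8 families of complex IV and the Atp5 genes of complex V. Of 89 rows that matched, 68 had values, among 10792 genes with values in all. These 68 were 30 genes of complex I, 4 of complex II, 7 of complex III, 12 of complex IV and 15 of complex V. The other 21 rows were 4 pseudogenes and 17 protein-coding genes, which were not analysed here: Atp5f1, Atp5j, Cox4i1, Cox6a2, Cox7a1, Cox7b2, Cox8b, Cox8c, Ndufa13, Ndufa2, Ndufa3, Ndufa4l2, Ndufb11, Ndufb5, Ndufs3, Uqcrb and Uqcrc2. The names sort the genes by tradition, and as background Ndufa4 is now known as a complex IV subunit, Cox7a2l as a factor of respiratory supercomplexes and Atp5sl (now Dmac2) as a factor in complex I assembly.

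All cells came from C57BL/6 mice of 8.5 to 9 months and were sorted from hind-limb muscle for VCAM1 and against CD31, CD45 and Sca1. The groups were non-activated cells of virgin mice (MuSC, n = 3), activated cells of virgin mice (ACT, n = 6), non-activated cells of pregnant mice (MuSCP, n = 3) and activated cells of pregnant mice (ACTP, n = 6), where activation followed injury of the muscle with a 23-gauge needle. Libraries of non-injured mice were made from total RNA after removal of ribosomal RNA. Those of injured mice used a different kit on poly-A-selected RNA. Activation and library kit therefore cannot be told apart, while both comparisons of pregnancy lie within a kit. Neither the time after injury, the stage of pregnancy nor whether each library is a separate animal is given, so p-values measure the spread between these libraries.

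The chain oxidises NADH at complex I and succinate at complex II, passes electrons through ubiquinone, complex III and cytochrome c to oxygen at complex IV, and the proton gradient built by complexes I, III and IV drives ATP synthesis at complex V. Most subunits are encoded in the nucleus and imported, and a small core of complexes I, III, IV and V is encoded in mitochondrial DNA. Quiescent satellite cells are known for few mitochondria and low respiration, both of which increase on activation. NRF1, the ETS factor GABP and YY1 are known regulators that bind promoters of many of these genes.

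The 120 bases from 150 to 31 before the start site are shown for 4 genes, from RefSeq promoters of build GRCm38.p6. All 4 hold a motif in this stretch, so they do not show how often genes with large changes hold one. Capitals mark a motif, and the genes are Atp5k (chr5:108434430-108434549, minus strand), the gene with the largest difference between activated and non-activated cells, Sdhd (chr9:50603880-50603999, minus strand) and Uqcr11 (chr10:80406852-80406971, minus strand), the leading genes of complexes II and III in pregnant mice, and Ndufa11 (chr17:56717612-56717731, plus strand), which was lower in activated cells of pregnant mice. In ACTP against ACT the log2 change of Ndufa11 was -0.29, close to the median of complex I (-0.28). The last bases of the Atp5k stretch lie inside the gene's extent in the deposited table.
Atp5k: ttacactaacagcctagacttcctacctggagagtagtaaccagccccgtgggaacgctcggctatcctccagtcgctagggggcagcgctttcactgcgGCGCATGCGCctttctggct
Sdhd: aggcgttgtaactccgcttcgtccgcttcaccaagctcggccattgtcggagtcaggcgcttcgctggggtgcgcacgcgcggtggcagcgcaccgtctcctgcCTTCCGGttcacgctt
Uqcr11: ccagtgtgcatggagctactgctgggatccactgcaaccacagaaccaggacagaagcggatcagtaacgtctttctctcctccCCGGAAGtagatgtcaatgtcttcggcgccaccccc
Ndufa11: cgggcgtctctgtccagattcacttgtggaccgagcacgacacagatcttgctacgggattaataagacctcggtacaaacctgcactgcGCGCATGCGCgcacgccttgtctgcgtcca

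Promoters were found for 58 of the 68 genes, 1 of them (Atp5sl) by its current name, and 5 genes had more than 1 start. In the window of 300 bases, 250 before and 50 after the start, the NRF1 letters GCGCATGCG on either strand were present in 8 of 58 genes (13.8%), against 4.15% of 8264 tested genes and 1.95% of all 27025 genes of the table. That word and its reverse complement overlap by 8 letters, so the capitals in Atp5k and Ndufa11 hold both. The ETS letters CCGGAAG were present in 14 genes (24.1%, against 18.4% and 9.93%), and the capitals in Sdhd and Uqcr11 mark them. The YY1 letters AAGATGGCG were present in 7 genes (12.1%, against 3.39% and 1.64%). Uqcr11, Cox6a1, Atp5k and Atp5l held both the NRF1 and the ETS letters. Between ACT and MuSC the median log2 change with and without the letters was 2.69 and 2.15 for NRF1, 2.65 and 2.15 for ETS and 1.67 and 2.19 for YY1. Between ACTP and MuSCP it was 2.07 and 1.85, 2.92 and 1.79, and 1.79 and 1.86 in the same order. A match is a description of the letters only.

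Counts summed over the 10792 genes with values ran from 14043324 to 24336842 per library. Values below are the authors' normalized counts, raw counts divided by 1 factor per library. Satellite cell markers were present in all groups, with Pax7, the defining transcription factor, at 14481 to 20831 in MuSC, 4555 to 7991 in ACT, 11240.5 to 11668 in MuSCP and 5654 to 8158 in ACTP libraries. Among activated libraries, ACT replicate 2 stood apart, holding the highest value of its group for 59 of the 68 genes, while ACTP replicate 4 held the lowest of its group for 34. Among non-activated libraries, MuSCP replicate 1 held the lowest value of its group for 42.

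Values of nearly all of these genes were higher in libraries of activated cells, a difference that cannot be told apart from that of kit. In virgin mice, 64 of the 68 genes were higher in ACT than in MuSC and 1, Ndufs4, was lower, with a median log2 change of 2.15. The test was limma on log2(normalized count + 1), with a Benjamini-Hochberg adjusted p under 0.05 over all genes. Over all 10751 genes tested, 39.0% were higher and 33.6% lower, with a median of 0.17. In pregnant mice, 63 of 68 were higher in ACTP than in MuSCP and Ndufs4 was again the gene that was lower, with a median of 1.82, beside 40.3% higher and 32.6% lower of all genes and a median of 0.21. The ACT libraries all lay above the MuSC libraries for 61 of 68 genes (36.3% of all genes), and the ACTP libraries all above the MuSCP libraries for 61 of 68 (33.6%). Of the counts summed over genes with values, the 68 genes took 0.258% to 0.295% in MuSC, 0.215% to 0.292% in MuSCP, 1.08% to 1.36% in ACT and 0.891% to 1.05% in ACTP libraries.

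**Figure D1:**
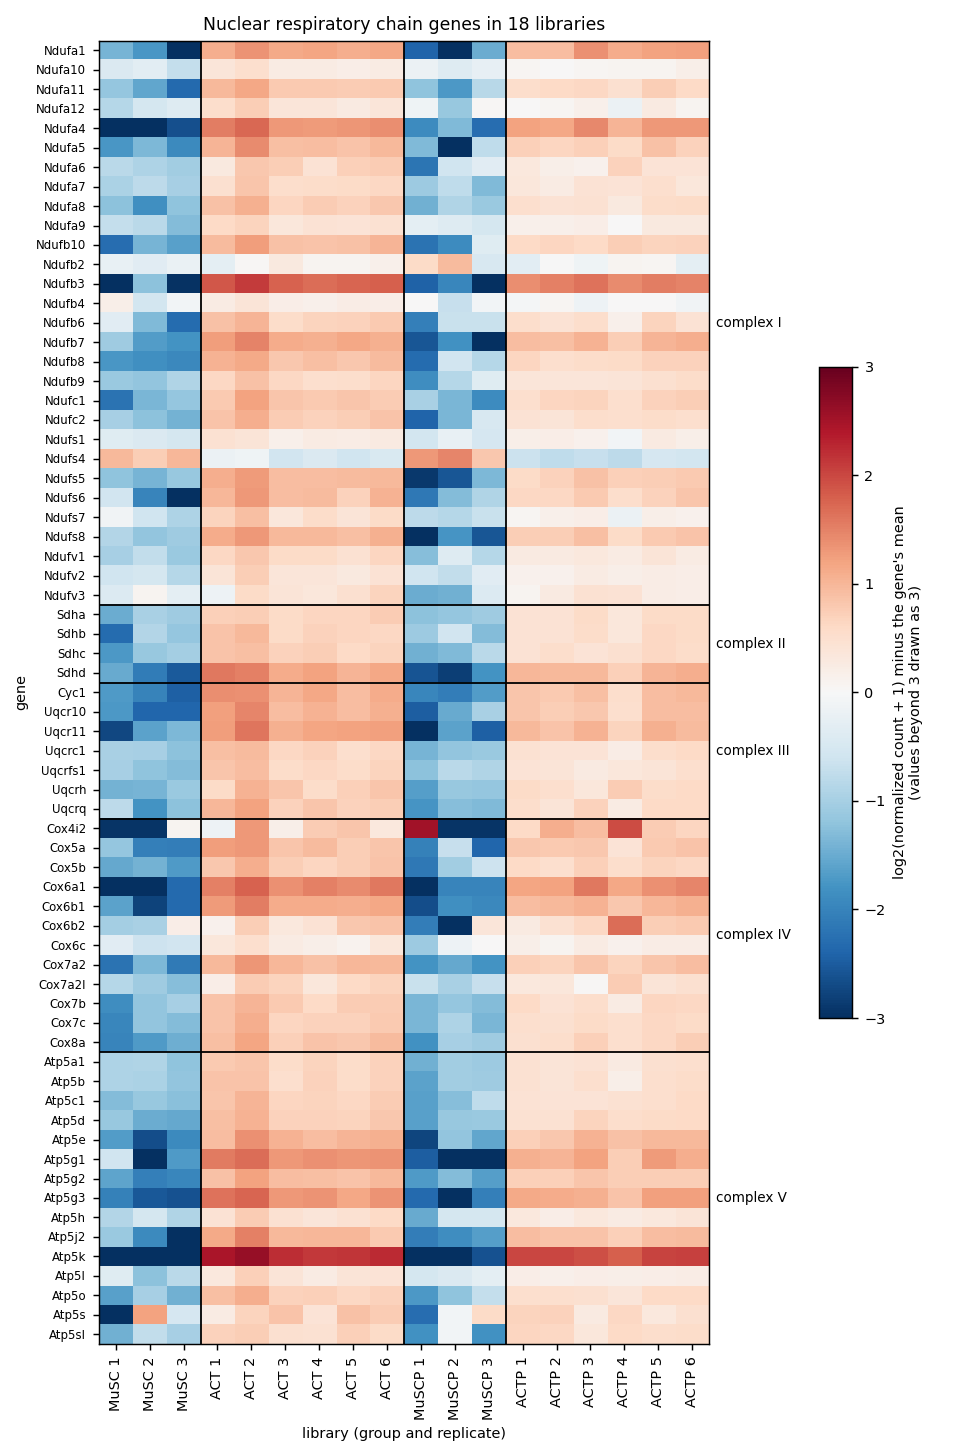
Level of 67 of the 68 genes (rows, by complex) in each of the 18 libraries (columns, by group), as log2(normalized count + 1) minus the gene's mean over the libraries, with blue below and red above the mean. Nearly all genes are blue in the MuSC and MuSCP libraries and red in the ACT and ACTP libraries, Ndufs4 shows the opposite, and ACTP libraries are paler than ACT libraries.

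Markers of other cell types differed across the same comparison. The 5 leukocyte markers with values summed to 163.1 to 283.7 in MuSC and 773.6 to 1158 in ACT libraries, and to 67.7 to 188.8 in MuSCP and 1571 to 7041 in ACTP libraries. The 7 fibro-adipogenic markers with values summed to 5432 to 6355, 32393 to 60037, 5809 to 6368 and 61977 to 103437 in the same order. Of 6 myofibre markers with values 3 were higher and none lower in both comparisons (median log2 changes 1.37 and 2.21), with sums of 285.7 to 971.0 in MuSC, 792.1 to 1387 in ACT, 193.9 to 596.1 in MuSCP and 513.0 to 1595 in ACTP libraries. Of 4 endothelial markers 1 was higher and 1 lower in virgin and 2 higher and 1 lower in pregnant mice, and their sums overlapped between the groups in both. The part of these cell types in the activation result was not tested.

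Beside kit, the annotated genomic span of a gene moved with these differences. Across the 10751 genes the log2 change between ACT and MuSC fell with span (Spearman rho = -0.621, and -0.564 between ACTP and MuSCP), where each point is a gene of the same libraries. The respiratory chain genes are short, with a median span of 7.5 kb against 27.5 kb for all genes, and among the 68 the rho was -0.452 and -0.556. With each library's trend with span taken out, 49 of the 68 genes were still higher and 3 lower in virgin mice (median 0.87), and 38 higher and 7 lower in pregnant mice (median 0.56). Of all 10751 genes 2900 were then higher and 3815 lower in virgin mice (median -0.10), and 2783 higher and 4193 lower in pregnant mice (median -0.17). Under that setting the log2 change turned negative in 1 or both comparisons for Atp5h, Atp5l, Cox6b2, Cox6c, Cox7c, Ndufa12, Ndufa6, Ndufb2, Ndufb4, Ndufs7, Ndufv1, Ndufv3 and Uqcrfs1.

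**Figure D2:**
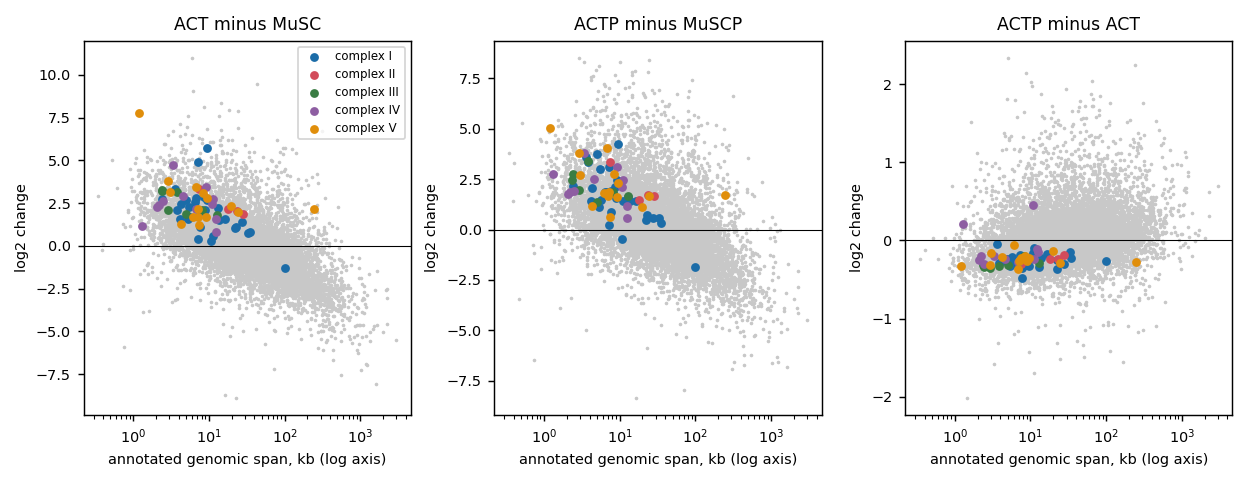
Log2 change of each gene (vertical) against its annotated genomic span in kb (horizontal, log axis) in 3 comparisons, with all genes tested in grey and the 68 genes coloured by complex. In both comparisons with activation the grey cloud slopes down and the coloured points lie at short spans, with Ndufs4 (100.3 kb) below 0 and Atp5o (247.3 kb) above it. In ACTP against ACT most coloured points lie just below 0, and over all genes the change rose with span (Spearman rho = 0.302).

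Complex I, NADH dehydrogenase, had 27 of 30 genes higher and 1 lower in each comparison, with median log2 changes of 1.88 in virgin and 1.52 in pregnant mice. The flavoprotein subunit Ndufv1, which binds the flavin that takes electrons from NADH, was at 875, 1046 and 813 in the MuSC libraries and at 2407 to 3044 (median 2660.2) in the ACT libraries, a log2 change of 1.56 ± 0.13 (SE, adjusted p = 3.94e-09). All ACT libraries lay above every MuSC library. In pregnant mice Ndufv1 was at 719.9, 1331 and 963 in MuSCP and 2080.1 to 2271 (median 2108) in ACTP libraries, a log2 change of 1.13 ± 0.13 (SE, adjusted p = 3.66e-07). Of the other redox-centre subunits described here, Ndufs1 changed least, by 0.73 ± 0.09 (SE, adjusted p = 9.79e-07) in virgin and 0.57 ± 0.09 (SE, adjusted p = 2.03e-05) in pregnant mice. Ndufs8, an iron-sulfur subunit close to the quinone site, changed most among them, by 2.10 ± 0.22 (SE, adjusted p = 8.73e-08) and 3.36 ± 0.22 (SE, adjusted p = 1.45e-10). Ndufv2 and Ndufs7 lay between, at 1.09 and 1.12 in virgin mice and 0.74 and 0.86 in pregnant mice, both higher past the test.

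The accessory subunits of complex I spread more widely than the core. Ndufb3, a small subunit of the membrane arm, was at 0, 78.5 and 22.8 in MuSC and 592 to 788 (median 638) in ACT libraries. It was at 33.5, 47.0 and 12.2 in MuSCP and 486 to 577 (median 524) in ACTP libraries. The log2 changes, 5.73 ± 0.81 (SE, adjusted p = 3.52e-06) and 4.23 ± 0.81 (SE, adjusted p = 0.000123), were the largest of the complex. The first was 4.44 with a pseudocount of 10, 3.92 without MuSC replicate 1 and 7.07 without MuSC replicate 2. Ndufa4 rose from 26.5, 95.4 and 124 in MuSC to 1912 to 2596 (median 2029.6) in ACT libraries, by 4.94 ± 0.31 (SE, adjusted p = 6.16e-11). It rose from 210.2, 310.4 and 159.8 in MuSCP to 1601 to 2132 (median 1868) in ACTP libraries, by 3.08 ± 0.31 (SE, adjusted p = 5.58e-08). Its groups did not overlap in either comparison, and without MuSC replicate 1 the change in virgin mice was 4.27.

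Ndufs4, an accessory subunit whose loss in mice is used as a model of Leigh syndrome, went the other way. The gene (chr13:114287795-114388094, minus strand, build GRCm38) was at 1764, 1494 and 1807 in MuSC and 594 to 818 (median 662) in ACT libraries. It was at 2222, 2479 and 1579 in MuSCP and 523 to 630.3 (median 567) in ACTP libraries. Every activated library was below every non-activated one, with log2 changes of -1.30 ± 0.14 (SE, adjusted p = 7.6e-08) and -1.85 ± 0.14 (SE, adjusted p = 6.28e-10). It was lower past the test under all 32 alternatives in both comparisons, and its log2 change in virgin mice was -0.44 with the span trend taken out.

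Ndufb2 and Ndufb4, both of the membrane arm, passed the test in neither comparison. Ndufb2 was at 188, 174 and 192 in MuSC, 181 to 268 (median 233) in ACT, 327, 426 and 159 in MuSCP and 176 to 234 (median 209) in ACTP libraries. Its log2 changes were 0.31 ± 0.23 (SE, adjusted p = 0.231) and -0.45 ± 0.23 (SE, adjusted p = 0.086). Ndufb4 was at 315, 189 and 264, 307 to 363 (median 322), 279, 173 and 263 and 251 to 292 (median 274) in the same order, and its changes were 0.38 ± 0.17 (SE, adjusted p = 0.0512) and 0.22 ± 0.17 (SE, adjusted p = 0.251). The groups of both genes overlapped. The remaining 19 accessory genes were higher in both comparisons, from 0.59 for Ndufv3 to 3.30 for Ndufa1 in virgin mice and from 0.35 for Ndufa10 to 3.74 for Ndufb7 in pregnant mice. The last was 3.14 without MuSCP replicate 3.

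**Figure D3:**
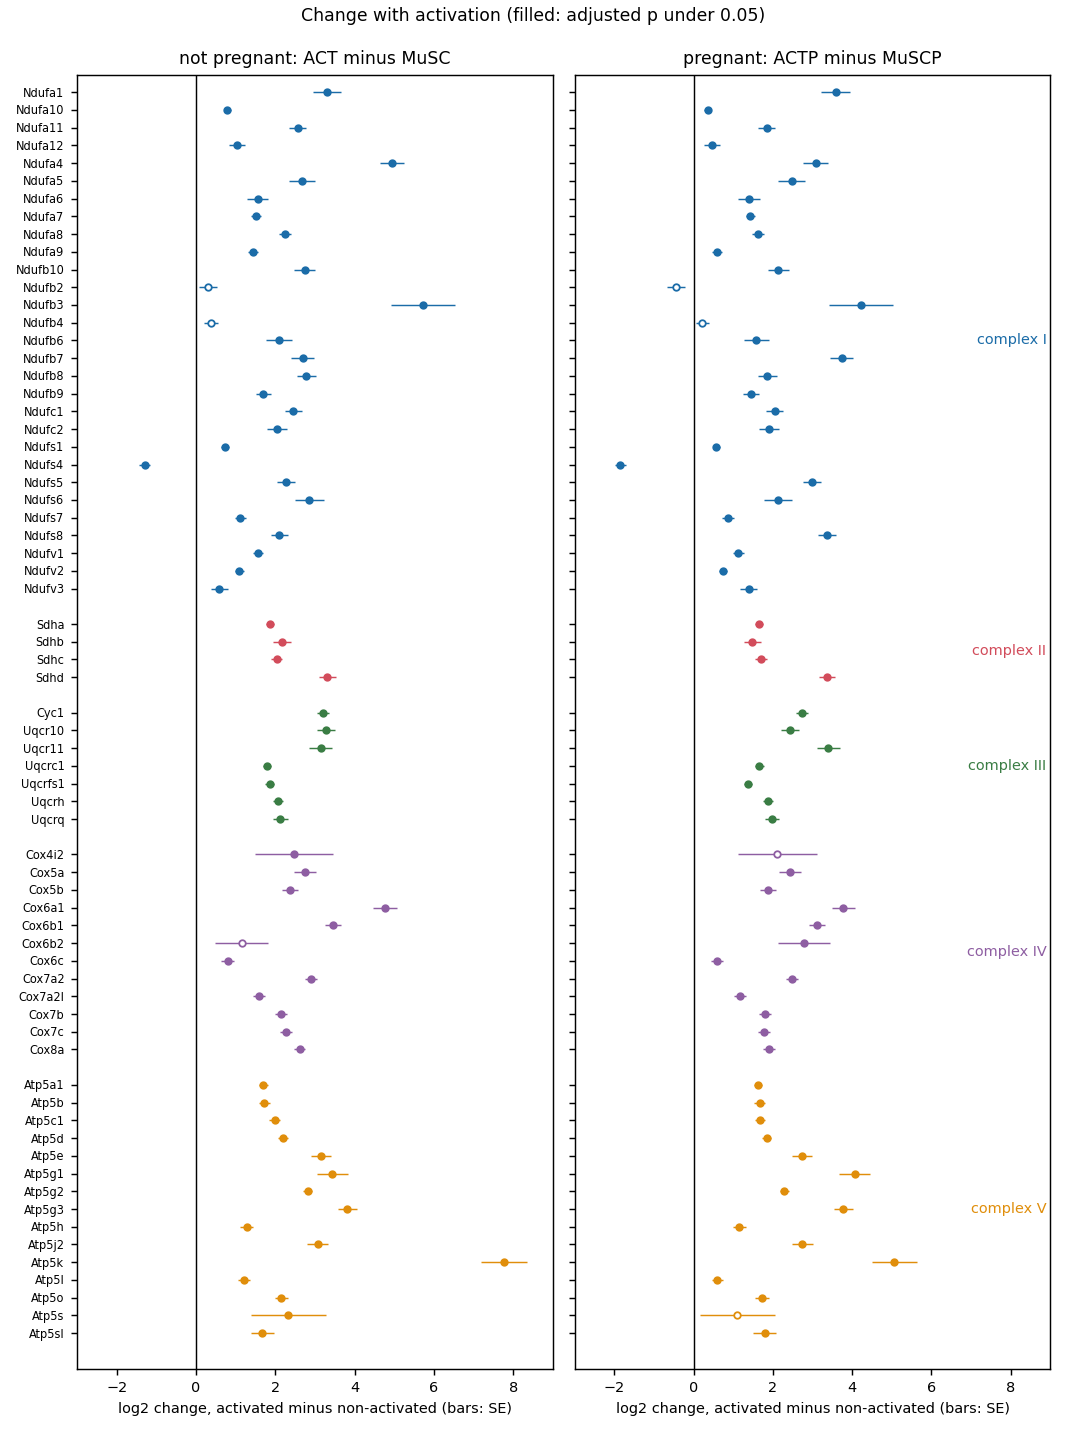
Log2 change between activated and non-activated cells for 67 of the 68 genes, by complex, in virgin mice (left) and in pregnant mice (right), with bars of 1 standard error, filled points past an adjusted p of 0.05 and open points not past it. Nearly all points lie to the right of 0. Ndufs4 lies to the left on both sides and Ndufb2, not past the test, in pregnant mice, and Atp5k lies farthest to the right.

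Complex II, succinate dehydrogenase, is the enzyme shared with the citric acid cycle and is encoded wholly in the nucleus, and all 4 of its genes were higher in both comparisons. Sdha, the flavoprotein that oxidises succinate, was at 1230.1, 1784 and 1656 in MuSC and 5218 to 5863 (median 5571) in ACT libraries, the smallest change of the complex in virgin mice at 1.86 ± 0.10 (SE, adjusted p = 3.83e-12). In pregnant mice it was at 1483, 1551 and 1648 and 4429.7 to 5183 (median 4937), a log2 change of 1.65 ± 0.10 (SE, adjusted p = 2.63e-11). The membrane anchor Sdhd, whose promoter stretch is shown above, rose from 393, 261 and 194 in MuSC to 2279.8 to 3364 (median 2544) in ACT libraries and from 187, 158 and 323 in MuSCP to 1850.4 to 2398 (median 2233) in ACTP libraries. It had the largest change of the complex in both, 3.31 ± 0.21 (SE, adjusted p = 4.63e-11) and 3.36 ± 0.21 (SE, adjusted p = 4.87e-11), or 9.93- and 10.3-fold. Sdhb, the iron-sulfur subunit, changed by 2.17 and 1.48, the latter the smallest of the complex, and Sdhc, the other anchor, by 2.04 and 1.70.

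Complex III, the cytochrome bc1 complex, had all 7 genes higher in both comparisons, with medians of 2.13 and 1.97. Cyc1, the haem subunit cytochrome c1, was at 559.6, 452 and 335 in MuSC and 3496 to 4799.6 (median 4004) in ACT libraries, a log2 change of 3.21 ± 0.15 (SE, adjusted p = 6.02e-13). It was at 467, 430.3 and 568 in MuSCP and 2620.0 to 3585 (median 3340.5) in ACTP libraries, a change of 2.73 ± 0.15 (SE, adjusted p = 6.98e-12). Uqcrfs1, the Rieske iron-sulfur protein, was at 834, 730.2 and 676 in MuSC, 2440.5 to 3191 (median 2635) in ACT, 708, 949 and 900.2 in MuSCP and 2022 to 2380.1 (median 2188) in ACTP libraries. Its changes were 1.86 ± 0.11 (SE, adjusted p = 1.27e-11) and 1.37 ± 0.11 (SE, adjusted p = 1.14e-09). Both redox subunits were thus higher in every activated library. Uqcrc1, a core structural subunit, had the smallest change in virgin mice (1.79 ± 0.11 SE, adjusted p = 2.69e-11) and Uqcrfs1 the smallest in pregnant mice. The largest changes were those of the small subunits, 3.27 ± 0.23 (SE, adjusted p = 3.09e-10) for Uqcr10 in virgin and 3.39 ± 0.29 (SE, adjusted p = 4.67e-09) for Uqcr11 in pregnant mice.

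Complex IV, cytochrome c oxidase, had 11 of 12 genes higher in each comparison, with medians of 2.42 and 2.00. Cox6a1, the form of subunit 6a used outside heart and muscle fibres, led the complex, at 108, 67.7 and 221 in MuSC and 2876 to 3791 (median 3172) in ACT libraries and at 104, 283 and 281 in MuSCP and 2492 to 3315 (median 2710.0) in ACTP libraries. Its changes were 4.76 ± 0.30 (SE, adjusted p = 4.37e-11) and 3.78 ± 0.30 (SE, adjusted p = 1.39e-09). Cox6c changed least, by 0.80 ± 0.16 (SE, adjusted p = 0.000225) and 0.59 ± 0.16 (SE, adjusted p = 0.00337). The ubiquitous Cox5a, which takes part in nucleating the complex, was at 312, 169 and 166 in MuSC, 1177 to 1740.3 (median 1313) in ACT, 173, 437 and 135 in MuSCP and 937 to 1274 (median 1224) in ACTP libraries, higher by 2.75 and 2.43.

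Complex IV has subunits with more than 1 form, and for subunit 6b both had values. Cox6b1, the widely expressed form, rose by 3.46 ± 0.20 (SE, adjusted p = 1.46e-11) and 3.11 ± 0.20 (SE, adjusted p = 7.94e-11). Cox6b2, known as the testis form, was at 20.6, 21.5 and 49.8 in MuSC, 47.1 to 79.2 (median 65.9) in ACT, 9.4, 1.2 and 55.5 in MuSCP and 52.2 to 140.2 (median 69.7) in ACTP libraries. The change of 1.15 ± 0.66 (SE, adjusted p = 0.124) in virgin mice missed the test. That of 2.78 ± 0.66 (SE, adjusted p = 0.000957) in pregnant mice passed it, but was 1.79 with a pseudocount of 10 and 1.62 without MuSCP replicate 2. Its groups overlapped in both comparisons. Cox4i2, the form of subunit 4 known to be induced by low oxygen in lung, was low throughout, at 0, 0 and 7.1 in MuSC, 5.9 to 17.8 (median 10.2) in ACT, 42.9, 0 and 0 in MuSCP and 10.6 to 28.9 (median 12.7) in ACTP libraries. Its call in virgin mice (2.47 ± 0.99 SE, adjusted p = 0.0325) was lost with a pseudocount of 10, at 0.77 (adjusted p = 0.11), and without MuSC replicate 1, at 1.96. Its groups overlapped. The difference between Cox6b1 and Cox6b2 was not tested. Cox7a2 and the supercomplex factor Cox7a2l were both higher, by 2.91 and 1.59 in virgin and 2.49 and 1.16 in pregnant mice, and Cox8a by 2.61 and 1.89. Cox5b, Cox7b and Cox7c lay between 2.14 and 2.37 in virgin and between 1.77 and 1.88 in pregnant mice.

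Complex V, ATP synthase, had all 15 genes higher in virgin mice and 14 of 15 in pregnant mice, with medians of 2.19 and 1.79. Atp5b, the catalytic beta subunit, was at 10625, 10456 and 8898 in MuSC and 28801 to 36873 (median 32707) in ACT libraries, a log2 change of 1.72 ± 0.14 (SE, adjusted p = 1.38e-09). It was at 6618, 9861 and 9735 in MuSCP and 22895 to 29754 (median 28355) in ACTP libraries, a change of 1.67 ± 0.14 (SE, adjusted p = 2.52e-09). The alpha subunit Atp5a1 moved by 1.70 ± 0.11 (SE, adjusted p = 6.29e-11) and 1.62 ± 0.11 (SE, adjusted p = 1.59e-10), and Atp5c1, the rotating gamma subunit, by 1.98 ± 0.13 (SE, adjusted p = 1.16e-10) and 1.68 ± 0.13 (SE, adjusted p = 1.43e-09). These 3 genes of the catalytic head were higher by 3.07- to 3.95-fold.

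The 3 genes Atp5g1, Atp5g2 and Atp5g3 encode the same mature subunit c of the membrane ring, and all 3 were higher. Atp5g1 was at 398, 44.6 and 183 in MuSC, 1476 to 1931 (median 1553) in ACT, 108, 60.0 and 64.4 in MuSCP and 996 to 1457 (median 1274) in ACTP libraries. Its changes were 3.44 ± 0.40 (SE, adjusted p = 3.19e-07) and 4.06 ± 0.40 (SE, adjusted p = 3.93e-08). The first was 4.15 without MuSC replicate 1 and 2.59 without MuSC replicate 2. Atp5g2 changed by 2.82 ± 0.11 (SE, adjusted p = 1.38e-13) and 2.29 ± 0.11 (SE, adjusted p = 2.65e-12), and Atp5g3 by 3.82 ± 0.24 (SE, adjusted p = 4.01e-11) and 3.77 ± 0.24 (SE, adjusted p = 6.26e-11).

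Atp5k (chr5:108433244-108434448, minus strand, 1.205 kb), the small subunit e that joins ATP synthase into dimers, had the largest difference of all 68 genes. It was at 0, 23.1 and 7.8 in MuSC and 1154 to 1617 (median 1238) in ACT libraries. It was at 24.9, 25.9 and 42.2 in MuSCP and 914 to 1098 (median 1062) in ACTP libraries. The log2 changes were 7.77 ± 0.57 (SE, adjusted p = 4.99e-10) and 5.06 ± 0.57 (SE, adjusted p = 2.31e-07). The first was 6.18 with a pseudocount of 10, 6.48 without MuSC replicate 1 and 8.77 without MuSC replicate 2. Reads that fall on its pseudogene could not be separated here. The same holds for Atp5l, subunit g, which changed least in the complex, by 1.21 ± 0.14 (SE, adjusted p = 1.94e-07) and 0.60 ± 0.14 (SE, adjusted p = 0.000645). Atp5s, coupling factor B, was at 0, 125 and 37.7 in MuSC, 63.8 to 99.2 (median 88.9) in ACT, 10.3, 50.6 and 81.0 in MuSCP and 64.7 to 86.8 (median 79.0) in ACTP libraries, with groups that overlapped. Its call in virgin mice (2.33 ± 0.95 SE, adjusted p = 0.0353) was lost without MuSC replicate 1, at 0.29 (adjusted p = 0.653), and in pregnant mice it missed the test (1.10 ± 0.95 SE, adjusted p = 0.309). The other 6 genes, Atp5d, Atp5e, Atp5h, Atp5j2, Atp5o and Atp5sl, were higher by 1.28 to 3.15 in virgin and 1.15 to 2.74 in pregnant mice.

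Within activated cells, where both groups share a kit, pregnancy went with slightly lower levels across the chain. In ACTP against ACT, 50 of the 68 genes were lower and none higher, with a median log2 change of -0.26, or 16.4% below ACT, while of 10499 genes tested 13.4% were lower and 14.0% higher, with a median of -0.01. By complex, 23 of 30 genes were lower in complex I (median -0.28), 4 of 4 in II (-0.24), 6 of 7 in III (-0.32), 6 of 12 in IV (-0.22) and 11 of 15 in V (-0.26). Of all 68 genes, 66 had a negative log2 change, the exceptions being Cox4i2 and Cox6b2, beside 51.9% of all genes tested. The ACTP libraries all lay below the ACT libraries for 28 of the 68, beside 5.96% of all genes tested. The changes are small, from -0.48 to 0.46. None of the 68 passed a test against a 1.5-fold change, by which 0 of all 10499 genes were lower and 13 higher.

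How many genes passed depended on the fit and on single libraries. Without ACT replicate 2, the library highest for 59 genes, 32 were lower (median -0.21), and of all 10499 genes 861 were lower in place of 1410. Without ACT replicates 1 and 2, the pair with the highest medians and left out after the data were seen, 23 were lower (median -0.18), and 785 of all genes. In a fit of all 4 groups with 1 shared spread, 2 were lower with the same median of -0.26, and 97 of all 10751 genes. The authors' deposited table, at an adjusted p under 0.05, lists 9 as lower and none as higher, and its share over all genes was not counted here. Across the 10499 genes the log2 change between ACTP and ACT rose with span (Spearman rho = 0.302, and 0.189 among the 68), so short genes tended to be lower. With the span trend taken out 29 of the 68 were lower (median -0.20), and 1377 of all 10499 genes.

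**Figure D4:**
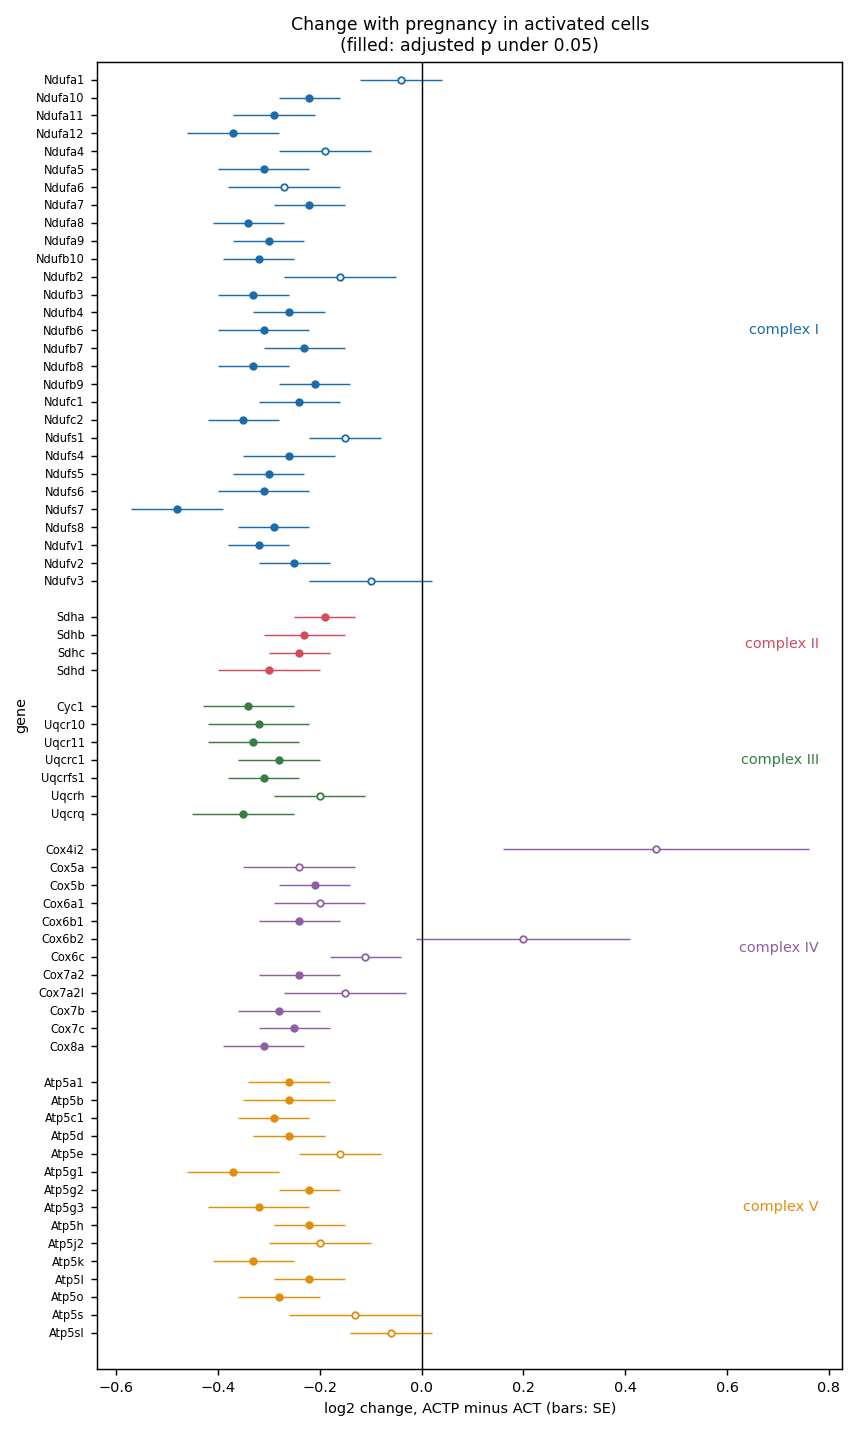
Log2 change between ACTP and ACT for 67 of the 68 genes, by complex, with bars of 1 standard error, filled points past an adjusted p of 0.05 and open points not past it. All points but those of Cox4i2 and Cox6b2 lie left of 0, and Ndufs7 lies farthest left at -0.48.

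The genes of smallest p were mostly of complex I. Ndufv1 was at 2407 to 3044 (median 2660.2) in ACT and 2080.1 to 2271 (median 2108) in ACTP libraries, a log2 change of -0.32 ± 0.06 (SE, adjusted p = 0.00258). Ndufs7, an iron-sulfur subunit next to the quinone site, showed the largest decrease, at 1114 to 1643 (median 1283) in ACT and 772 to 1003 (median 964) in ACTP libraries, a change of -0.48 ± 0.09 (SE, adjusted p = 0.00412). In both genes every ACTP library lay below every ACT library. Ndufc2, a membrane-arm subunit, was at 1222 to 1604 (median 1327) and 991 to 1109 (median 1072), a change of -0.35 ± 0.07 (SE, adjusted p = 0.00349). Ndufb8, also of the membrane arm, was at 1102 to 1383 (median 1189) and 886 to 1019 (median 956), a change of -0.33 ± 0.07 (SE, adjusted p = 0.00442). Ndufb10, Ndufa8, Ndufb3, Ndufa9, Ndufa12 and Ndufs5, 6 further accessory genes, fell by 0.32, 0.34, 0.33, 0.30, 0.37 and 0.30 on the log2 scale. Their adjusted p ran from 0.00599 to 0.0124. Of the core subunits, Ndufs8 and Ndufv2 were lower, with log2 changes of -0.29 and -0.25, whereas Ndufs1 at -0.15 ± 0.07 (SE, adjusted p = 0.126) missed the test. Ndufa11, whose promoter stretch is shown above, was at 646 to 862 (median 665) in ACT and 531 to 644 (median 579) in ACTP libraries, a change of -0.29 ± 0.08 (SE, adjusted p = 0.0176) with no overlap.

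Outside complex I, the flavoprotein Sdha was at 5218 to 5863 (median 5571) in ACT and 4429.7 to 5183 (median 4937) in ACTP libraries, a change of -0.19 ± 0.06 (SE, adjusted p = 0.0277), and Sdhb, Sdhc and Sdhd changed by -0.23, -0.24 and -0.30. Uqcrfs1, at 2440.5 to 3191 (median 2635) and 2022 to 2380.1 (median 2188), changed by -0.31 ± 0.07 (SE, adjusted p = 0.00864), and Cyc1 by -0.34 ± 0.09 (SE, adjusted p = 0.0198). Among complex III genes Uqcrh missed the test at -0.20 ± 0.09 (SE, adjusted p = 0.0975). In complex IV, Cox8a changed by -0.31 ± 0.08 (SE, adjusted p = 0.0129), and Cox6b1, Cox5b, Cox7a2, Cox7b and Cox7c by -0.21 to -0.28. Cox5a (-0.24 ± 0.11 SE, adjusted p = 0.101) and Cox6a1 (-0.20 ± 0.09 SE, adjusted p = 0.0949) were among the 6 that missed the test. Atp5c1 was at 4138 to 5429.7 (median 4420.0) in ACT and 3572 to 4069 (median 3677) in ACTP libraries, a change of -0.29 ± 0.07 (SE, adjusted p = 0.0119) with no overlap. Atp5a1 and Atp5b both changed by -0.26, with adjusted p of 0.0227 and of 0.05, the latter at the threshold. The subunit c genes Atp5g1, Atp5g2 and Atp5g3 changed by -0.37, -0.22 and -0.32.

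Markers of other cell types moved with the same contrast. Of 12 leukocyte markers 5 had values, Lyz2, Cd14, Cd68, Cd74 and H2-Ab1, none at 0 in an activated library, and all 5 were higher in ACTP. Their sums, given above, were highest in ACTP replicate 2. Without that library 34 genes of the chain were lower (median -0.24), and 1019 of all 10499 genes. Without any 1 of the other ACTP libraries 35 to 48 were lower, and 1065 to 1211 of all genes. Of 8 fibro-adipogenic markers 7 had values, 6 were higher in ACTP, Pdgfra, Dcn, Lum, Col1a1, Col1a2 and Pi16, and none was at 0. Neither sum overlapped between the groups. None of 4 endothelial and 6 myofibre markers with values passed the test. The part of other cell types in the lower levels was not tested, and in bulk RNA fewer cells of a type and less RNA per cell cannot be told apart. Of 6 satellite cell markers with values, Vcam1, the sorting antigen, was higher (0.39 ± 0.12 SE, adjusted p = 0.0278) and Pax7 was at 0.06 ± 0.13 (SE, adjusted p = 0.77).

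**Figure D5:**
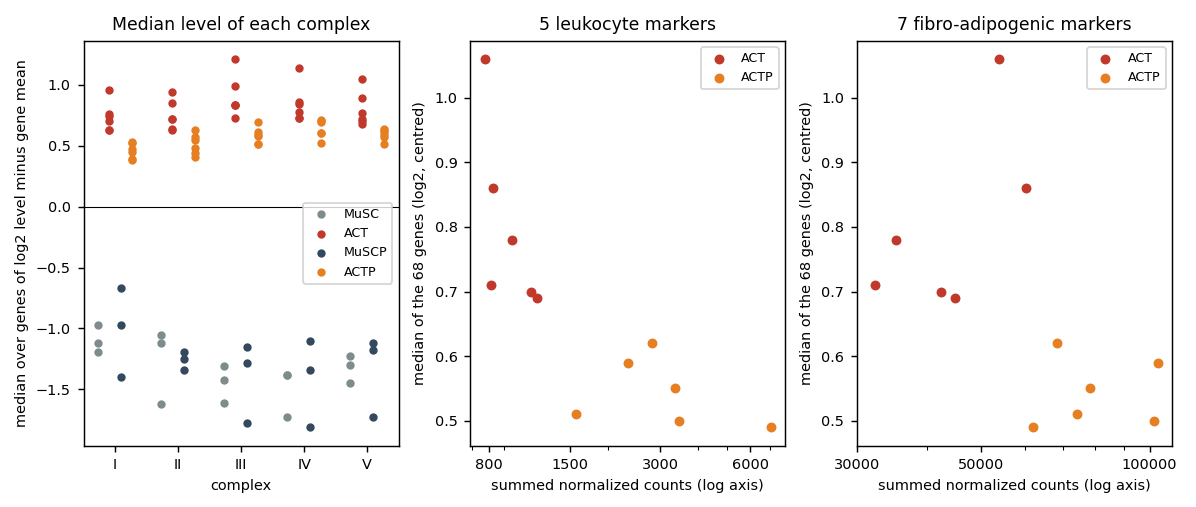
Left, the median over the genes of each complex of the log2 level minus the gene's mean, 1 point per library, for the 4 groups. Middle and right, the median over all 68 genes in the 12 activated libraries against the summed normalized counts (log axis) of 5 leukocyte and 7 fibro-adipogenic markers. The median over all 68 genes was 0.69 to 1.06 in ACT and 0.49 to 0.62 in ACTP libraries, and the ACTP libraries lie to the right in both marker panels.

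In non-activated cells no gene of the chain passed the test between MuSCP and MuSC, where 2.88% of 10447 genes were higher and 1.74% lower. Of the 67 genes tested (Cox4i2 was below the minimum), 43 had a positive and 24 a negative log2 change, with a median of 0.10. Of all 10447 genes 51.8% had a negative change, with a median of -0.02. An unadjusted p under 0.05 was found for 4 of the 67, all of complex I, beside 1903 of all 10447 genes, a larger share. These were Ndufs8 (-1.55 ± 0.50 SE, adjusted p = 0.102), Ndufa4 (1.66 ± 0.62 SE, adjusted p = 0.162), Ndufv3 (-0.90 ± 0.36 SE, adjusted p = 0.185) and Ndufa9 (0.54 ± 0.25 SE, adjusted p = 0.27). With 3 libraries in each group the values lay wide apart, as for Sdhb at 270.0, 721 and 595 in MuSC and 625, 895 and 542 in MuSCP libraries. A fit of all 4 groups called 3 genes higher and 4 lower of 68, beside 1210 and 1275 of all 10751, again larger shares. The authors' deposited table lists 6 as higher and 5 as lower, and its share over all genes was not counted here.

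The difference of the 2 activation changes, pregnant minus virgin, was tested as an interaction, with both pairs of groups in 1 fit. This sets a pregnancy difference within 1 kit against that within the other, so activation and kit cannot be told apart here either. The interaction was negative for 58 of the 68 genes and for 46.5% of all genes. Its median was -0.35 on the log2 scale beside 0.05 for all genes. By the test 8 genes were lower and 1 higher (7.24% lower and 7.83% higher of all genes). Complex I held 4 of the calls. Ndufa9, an accessory subunit at the junction of the arms, was at 603, 567 and 400.4 in MuSC, 1262 to 1575 (median 1339) in ACT, 805, 761 and 689 in MuSCP and 1005 to 1215 (median 1123) in ACTP libraries. Its interaction was -0.84 ± 0.16 (SE, adjusted p = 0.00335). Ndufa4, with values given above, had an interaction of -1.85 ± 0.44 (SE, adjusted p = 0.0105). In both genes the MuSCP libraries lay above all MuSC libraries and the ACTP median below the ACT median. Both were picked by the test on these same libraries, so this pattern adds no support to the calls. Its share over all genes was not counted. Ndufa10, an accessory subunit of the membrane arm, had -0.44 ± 0.13 (SE, adjusted p = 0.0256). Ndufs8 was the gene with the opposite sign, at 306, 245 and 266 in MuSC, 1053 to 1373 (median 1141) in ACT, 50.6, 163 and 93.2 in MuSCP and 832 to 1045 (median 948) in ACTP libraries. The interaction was 1.26 ± 0.32 (SE, adjusted p = 0.0133). Its MuSCP libraries all lay below its MuSC libraries, which adds no support to the call either.

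Outside complex I the interaction was past the test for Uqcrfs1 (-0.49 ± 0.15 SE, adjusted p = 0.0332), Cox8a (-0.73 ± 0.21 SE, adjusted p = 0.0281), Atp5k (-2.71 ± 0.81 SE, adjusted p = 0.0312), Atp5g2 (-0.53 ± 0.16 SE, adjusted p = 0.0341) and Atp5l (-0.61 ± 0.19 SE, adjusted p = 0.0412). Atp5k rested on MuSC values near the floor, and its interaction was -1.48 with a pseudocount of 10, -1.42 without MuSC replicate 1 and -3.72 without MuSC replicate 2. That of Ndufa4 was -1.19 without MuSC replicate 1. Of 30 alternatives, the call was kept in 28 for Ndufa9, Ndufa4 and Ndufs8, in 25 for Atp5k, 24 for Ndufa10, 23 for Cox8a, 17 for Uqcrfs1, 13 for Atp5g2 and 9 for Atp5l. The call of Atp5l was lost without any of 14 single libraries, that of Atp5g2 without any of 9 and that of Uqcrfs1 without any of 6. The counts of calls moved with the spread assumed. None was called when each group kept its own spread, where 5 of all 10751 genes were higher and 7 lower. Without MuSCP replicate 1, the library lowest for 42 genes, 22 were lower and 1 higher. Of all genes 1025 were then lower and 1277 higher, in place of 778 and 842. There were 5 lower without ACTP replicate 2 (630 of all genes) and 4 higher without MuSCP replicate 3 (1198 of all genes). There were 2 higher without MuSC replicate 2 (645 of all genes) or MuSCP replicate 2 (862 of all genes).

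The partners of these genes were described from lists. Of 13 protein genes of the mitochondrial genome, which supply the core of complexes I, III, IV and V, 8 had values, and all 8 were higher in both activation comparisons (median log2 changes 3.56 and 3.68). Of these mt-Cytb of complex III changed by 4.12 ± 0.21 (SE, adjusted p = 3.72e-12) and 3.69 ± 0.21 (SE, adjusted p = 2.23e-11). In ACTP against ACT none of the 8 passed the test, with a median of -0.04, beside -0.26 for the nuclear genes, and the difference between these medians was not tested. Of 39 assembly factors with values, 21 were higher and 4 lower in virgin and 25 higher and 5 lower in pregnant mice (medians 0.81 and 0.79). The shares over all genes, for this and the lists below, are the 39.0% higher and 33.6% lower in virgin and 40.3% and 32.6% in pregnant mice given above, and 13.4% lower and 14.0% higher in ACTP against ACT. Tmem70, an ATP synthase assembly factor, was higher at 2.43 ± 0.20 (SE, adjusted p = 2.79e-09) in pregnant mice and Cox20, a complex IV chaperone, lower at -4.96 ± 0.45 (SE, adjusted p = 1.26e-08). In ACTP against ACT 18 of the 39 were lower and none higher (median -0.30). The smallest p were those of Taco1, a translational activator of the mitochondrial Cox1 message, at -0.68 ± 0.12 (SE, adjusted p = 0.0027), Sdhaf2, which adds flavin to Sdha, at -0.29 ± 0.06 (SE, adjusted p = 0.0046), and Coa6, a copper-insertion factor, at -0.49 ± 0.10 (SE, adjusted p = 0.00478).

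Cycs, the electron carrier cytochrome c, was among 4 chain proteins outside the naming pattern with values. It was higher by 3.24 ± 0.14 (SE, adjusted p = 2.59e-13) and 2.30 ± 0.14 (SE, adjusted p = 3.36e-11) with activation, lower in ACTP than in ACT at -0.42 ± 0.11 (SE, adjusted p = 0.0152), and its interaction was -0.94 ± 0.19 (SE, adjusted p = 0.00465). Of 11 citric acid cycle genes with values, 10 were higher and 1 lower in virgin mice and 9 higher in pregnant mice, and 5 were lower in ACTP than in ACT, namely Suclg2, Suclg1, Mdh2, Idh3a and Fh1, from -0.22 to -0.40. Among 9 genes of mitochondrial biogenesis and transcription with values, 2 were higher and 5 lower in virgin mice and 1 higher and 6 lower in pregnant mice. The regulator Nrf1 was at 2894 to 3064 in MuSC and 877 to 1035 in ACT libraries, lower at -1.67 ± 0.09 (SE, adjusted p = 1.19e-11), and lower in pregnant mice too, at -1.87 ± 0.09 (SE, adjusted p = 3.51e-12). Polrmt, the mitochondrial RNA polymerase, was higher by 1.71 ± 0.15 (SE, adjusted p = 7.56e-09) and 1.88 ± 0.15 (SE, adjusted p = 2.38e-09). Gabpb1, a subunit of GABP, was lower at -1.98 ± 0.11 (SE, adjusted p = 6.27e-12) and -1.29 ± 0.11 (SE, adjusted p = 3.03e-09). In ACTP against ACT, Nrf1 was lower at -0.22 ± 0.06 (SE, adjusted p = 0.0152) and Gabpb1 higher by 0.20 ± 0.06 (SE, adjusted p = 0.0314).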

How the data were processed

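RNA sequencing libraries of sorted satellite cells were analysed from 1 deposited table, which holds, per the file headers, raw and normalized counts beside the fold changes (log2) and adjusted p-values of the authors. Per the submitters' processing notes, cutadapt 1.12, TopHat2 2.0.14, HTSeq 0.6.0, DESeq2 1.22.1 and build GRCm38 were used, with order and settings not given. Question marks stand for genes without values, so the deposited columns were recorded with the unit other, and limma 3.58.1 (R 4.3.3) on log2(normalized count + 1) took the place of a count model. A further 6 columns of other samples were not used. Genes entered a fit with a normalized count of at least 10 in a number of libraries equal to its smallest group. Activation and the interaction were tested in a fit of all 4 groups, pregnancy in fits of the 2 groups within a kit, with Benjamini-Hochberg adjustment over all genes and a threshold of 0.05. The test was checked on counts simulated with the same dispersion in every group and with planted changes larger than those of these genes between ACTP and ACT. It was not checked for groups of unequal spread or for changes that small. The genes, lists and tests were chosen with earlier results of these data known. Named genes are the highest and lowest of each complex, those lower or not called with activation, the 12 of smallest p per pregnancy comparison, all interaction calls, subunit isoforms and catalytic subunits. Leaving out each library, other scalings, filters, pseudocounts, spreads and a span correction were tried as alternatives. Genomic spans came from the deposited table and promoters from RefSeq. The results of 1 gene are counted but not reported by name or drawn as a row here.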

Additional observations from a re-analysis of the deposited data

Results flagged for a closer look

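Dixon's test was run on the 68 genes in ACT and in ACTP, 136 sets of 6 libraries, where chance gives about 1 in 20 for a single set. The sets share libraries and are not independent, so their count cannot be weighed against that rate. In 15 sets a library lay far from the others. In 8 of them the library was ACT replicate 2, always the highest: Ndufa5 at 959.8 against 650.6 to 731.5 in the others, Ndufc1 at 701.4 against 519.6 to 546.1, Ndufv2 at 1989 against 1472 to 1605, Uqcr11 at 1934 against 1341 to 1520.0, Cox7a2 at 2236 against 1628 to 1774, Atp5e at 2252 against 1639.8 to 1825, Atp5g2 at 1916 against 1495 to 1626 and Atp5l at 1521 against 1101 to 1235. In 5 it was ACTP replicate 4, which was lowest for Ndufs7 at 772.3, Sdhd at 1850.4 and Cox5a at 936.9 and highest for Cox4i2 at 28.9 and Cox6b2 at 140.2, each in normalized counts. ACTP replicate 6 was highest for Ndufa10 at 2164 and ACTP replicate 3 for Atp5g2 at 1456.

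The interaction test cannot tell activation from kit. By that test the change with activation differed between pregnant and virgin mice (log2, pregnant minus virgin) for 9 genes. It was -0.84 for Ndufa9, -1.85 for Ndufa4, 1.26 for Ndufs8, -0.44 for Ndufa10, -0.73 for Cox8a, -2.71 for Atp5k, -0.49 for Uqcrfs1, -0.53 for Atp5g2 and -0.61 for Atp5l. When each group kept its own spread none of the 9 passed, and of all 10751 genes 5 were higher and 7 lower. Among the alternatives run, Ndufa9, Ndufa4 and Ndufs8 lost the call only there and under the test for a change beyond 1.5-fold.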

How the results depend on the processing

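Counts of the 68 genes are given here as higher or lower at an adjusted p of 0.05. With the span trend taken out, 3 were lower in ACT against MuSC, 38 higher and 7 lower in ACTP against MuSCP, and 29 lower in ACTP against ACT. It turned directions in virgin mice for Cox6b2 (-1.10), called under neither setting, and for Atp5h (-0.35), Atp5l (-0.07), Cox6c (-0.13), Ndufa6 (-0.10), Ndufb2 (-0.72), Ndufb4 (-0.92), Ndufs7 (-0.15) and Ndufv3 (-0.41), and in pregnant mice for Atp5h (-0.42), Atp5l (-0.70), Cox6c (-0.42), Cox7c (-0.11), Ndufa12 (-0.10), Ndufa6 (-0.19), Ndufb4 (-1.10), Ndufs7 (-0.43), Ndufv1 (-0.34) and Uqcrfs1 (-0.13). No other alternative turned a direction in these 2 comparisons, while in the others the values that changed sign were called neither as reported nor under the alternative. The cause was not tested.

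In ACTP against ACT, a test for a change beyond 1.5-fold called 0 lower and the fit of all 4 groups 2. Over all genes they called 0 of 10499 and 97 of 10751 lower. The authors' deposited table lists 9 as lower, and leaving out ACT replicates 1 and 2 gave 23. In MuSCP against MuSC the fit of all 4 groups called 3 higher and 4 lower, and the authors' deposited table lists 6 as higher and 5 as lower. It lists 2 as lower in ACTP against MuSCP. The shares over all genes in that table were not counted in any of these comparisons. For the interaction, scaling by total counts called 2 higher and 3 lower, voom weights 5 lower, leaving out ACT replicates 1 and 2 called 2 lower, and a spread by group or a change beyond 1.5-fold called 0 in either direction. Over all 10751 genes, total counts called 1191 higher and 582 lower, voom weights 739 lower, and leaving out those libraries 571 lower. A spread by group called 5 higher and 7 lower of all genes, and the test beyond 1.5-fold 16 higher and 31 lower. The cause was not tested. Without 1 library at a time, 62 to 66 genes were higher in virgin and 62 to 64 in pregnant mice with activation, 1 and 1 to 2 lower, 32 to 48 lower in ACTP against ACT, 0 either way in MuSCP against MuSC, and 1 to 4 higher and 5 to 22 lower for the interaction. Of all genes, 3939 to 4380 were then higher and 3488 to 3734 lower with activation in virgin mice. In pregnant mice 4142 to 4539 of all genes were higher and 3386 to 3604 lower. In MuSCP against MuSC 161 to 267 of all genes were higher and 63 to 178 lower. In ACTP against ACT 861 to 1409 of all genes were lower. For the interaction 645 to 1277 of all genes were higher and 630 to 1025 lower.

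Deviations of same-numbered libraries from their group means had correlations of -0.175 to 0.141, and most were not closest to their own number. With so few libraries this cannot tell whether the numbers pair them. With a replicate block 63 genes were higher and 1 lower in virgin and 62 and 1 in pregnant mice, 0 either way in MuSCP against MuSC, 29 lower in ACTP against ACT, and 1 higher and 4 lower for the interaction. Of all genes 3925 were then higher and 3486 lower in virgin mice, and 4061 higher and 3342 lower in pregnant mice. In MuSCP against MuSC 346 of all genes were higher and 222 lower. In ACTP against ACT 923 of all genes were lower, and for the interaction 575 were higher and 629 lower. Non-activated values near the floor, as of Atp5k and Ndufb3, limit the size of a change that can be given.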
